A study of Ambystoma mexicanum with 8 samples.

Results

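The genes described here are 6 genes of red blood cell haem synthesis, iron handling and identity in the limb of the axolotl (Ambystoma mexicanum), a salamander that regrows its limbs: ALAS2, KLF1, SLC4A1, TFR2, TFRC and FTH1. They were found as the rows of the deposited gene table whose symbol, the last part of the row's name before its model identifier, is one of these. This gave 13 gene models of 61014 in all: 1 each for ALAS2 (AMEX60DD301025537.2), KLF1 (AMEX60DD301031962.2), SLC4A1 (AMEX60DD201009895.3) and TFRC (AMEX60DD201003147.1), 2 for TFR2 and 7 for FTH1. The models were kept apart. The TFR2 models are called TFR2-a (AMEX60DD201012818.3) and TFR2-b (AMEX60DD301003146.2, whose row carries both the name TFRC and the name TFR2). The FTH1 models are called FTH1-a (AMEX60DD201004586.1), FTH1-b (AMEX60DD301016342.1), FTH1-c (AMEX60DD102016343.2), FTH1-d (AMEX60DD301016341.1), FTH1-e (AMEX60DDU001033599.1), FTH1-f (AMEX60DD201016347.2) and FTH1-g (AMEX60DD201043228.1). These letters are used here only. Their sequences were not compared, and models of 1 symbol may be near-identical copies among which the counting could split molecules. The same holds for TFR2-b and the TFRC model, which share a name.

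Salamander red cells keep their nucleus in the circulation and can be read by single-cell RNA sequencing. ALAS2 is the erythroid form of the first enzyme of haem synthesis, which joins glycine and succinyl-CoA in the mitochondrion. KLF1 is a zinc finger transcription factor of the red cell lineage that activates globin and other erythroid genes in mammals, and SLC4A1 (band 3) is the anion exchanger of the red cell membrane. TFRC is the receptor that takes up iron-loaded transferrin in dividing and haemoglobin-making cells. TFR2 is its relative, known in mammals as a sensor of transferrin iron in liver and erythroid precursors. FTH1 is the heavy chain of ferritin, which oxidises iron and stores it, and which is abundant in mammalian macrophages that recycle red cell iron.

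All samples were labelled wild-type limb tissue. Limbs were dissociated, and live cells with 2C DNA content were sorted by DNA stain and viability dyes. The protocol calls these cells non-dividing, while the series text calls the same population dividing. The intact group holds 3 samples from homeostatic limbs, numbered 1, 2 and 4, and the contra group holds 4 samples from systemically activated limbs 14 days after an amputation, numbered 1, 2, 4 and 5. The libraries were 10x Single Cell 3' v3.1, so a count is 1 unique molecular identifier (UMI), taken at the 3' end of an RNA with no scaling by gene length. After removal of doublet calls 34574 cells were kept, with 96526090 to 131397510 UMIs and a median of 15851 to 23246 UMIs per cell in each sample. Of 34895 distinct cell barcodes, 118 occurred in more than 1 library.

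Cells were placed in classes by UMIs of marker genes that include none of the 6 genes. A cell was called erythroid when haemoglobin models made up at least 20% of its UMIs, epidermal markers stayed under 20 per 10000 UMIs, and the other marker lists together gave fewer than 10 UMIs. By the last 2 conditions 467 kept cells with at least 20% haemoglobin stayed outside the class. The erythroid class held 13366 cells, 38.7% of those kept, and only 85 cells lay between 15% and 25% haemoglobin. Its leading genes included haemoglobin models and ALAS2. Those of the epidermal class included KRT12, KRT5 and KRT15, and those of the T, B and macrophage classes included CD3E, CD79B and C1QA. Apart from ALAS2 these are the markers that set the classes, so they are no separate check of them. Leading genes outside the marker lists included ANXA1 (epidermal), CCL5 and GZMA (T), CXCR5 (B), and APOE and LYZ (macrophage). There were 8786 T cells, 7234 epidermal cells, 1770 B cells and 341 macrophages, while 2968 cells had no class. Haemoglobin took 75.2% to 79.0% of erythroid UMIs. Markers of other types in the summed erythroid cells reached 45.2 to 356 CPM (the usual library-size scaled UMI count, each sum's own total being the divisor) for the epidermal list, 2.57 to 6.13 CPM for T cells and 2.44 to 3.41 CPM for macrophages. All levels below are CPM over the summed cells of a class in each sample, given as mean ± SD over 7 samples unless stated, and levels by class are a description with no test.

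ALAS2, KLF1, SLC4A1 and TFR2-a were counted mostly in erythroid cells. Erythroid cells held 97.0% of all kept UMIs of ALAS2, 96.8% of those of KLF1, 96.4% of those of SLC4A1 and 95.9% of those of TFR2-a. ALAS2 stood at 1979 ± 349 CPM in erythroid cells, and its level in the other classes ran from 10.99 ± 4.58 CPM in epidermal cells to 16.1 ± 6.17 CPM in B cells. The erythroid mean was 123 to 180 times the other means, and the samples of the other classes overlapped with each other but not with the erythroid samples. ALAS2 was seen in 100.0% of erythroid cells, with a median of 43 UMIs per cell, 12 UMIs at the 10th and 119 at the 90th percentile.

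Free RNA from burst cells enters droplets, so low levels outside a gene's own cells need a yardstick. Per haemoglobin UMI, the ALAS2 UMIs of epidermal cells, T cells, B cells and macrophages were 1.10, 1.06, 1.08 and 1.04 times those of erythroid cells of the same sample (medians over 7 samples). That is close to the ratio at which erythroid RNA itself carries both genes, and ALAS2 outside the erythroid class is not read as expression here. Whether it came from free RNA was not tested. With every cell thinned to 3000 UMIs, ALAS2 was found in 97.5% of erythroid cells and in 3.31% to 5.395% of cells of the other 4 classes. Unthinned, those shares were 17.7% to 23.5%, at median depths of 12282.5 UMIs in B cells, 12319.5 in T cells, 14863 in macrophages and 21685 in epidermal cells, against 27921 in erythroid cells.

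SLC4A1 stood at 352 ± 90.7 CPM in erythroid cells and at 3.24 to 6.88 CPM in the other classes. Thinned, it was found in 58.2% of erythroid cells and in at most 1.17% of cells of another class. Per haemoglobin UMI its level in B cells was 0.899 times, in macrophages 1.57 times, in T cells 1.63 times and in epidermal cells 4.23 times that of erythroid cells. KLF1 was counted less, at 15.1 ± 2.52 CPM, and 31.5% of erythroid cells held a UMI of it. It stood at 0.298 CPM in B cells, 0.187 in T cells and 0.0816 in epidermal cells. No KLF1 UMI was seen in macrophages, where 0 of 5656942 UMIs allows up to 0.530 CPM and 0 of 341 cells allows up to 0.880% of cells with a UMI, which is no limit on cells expressing the gene. Such limits, and the intervals below, cover counting error only.

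**Figure D1:**
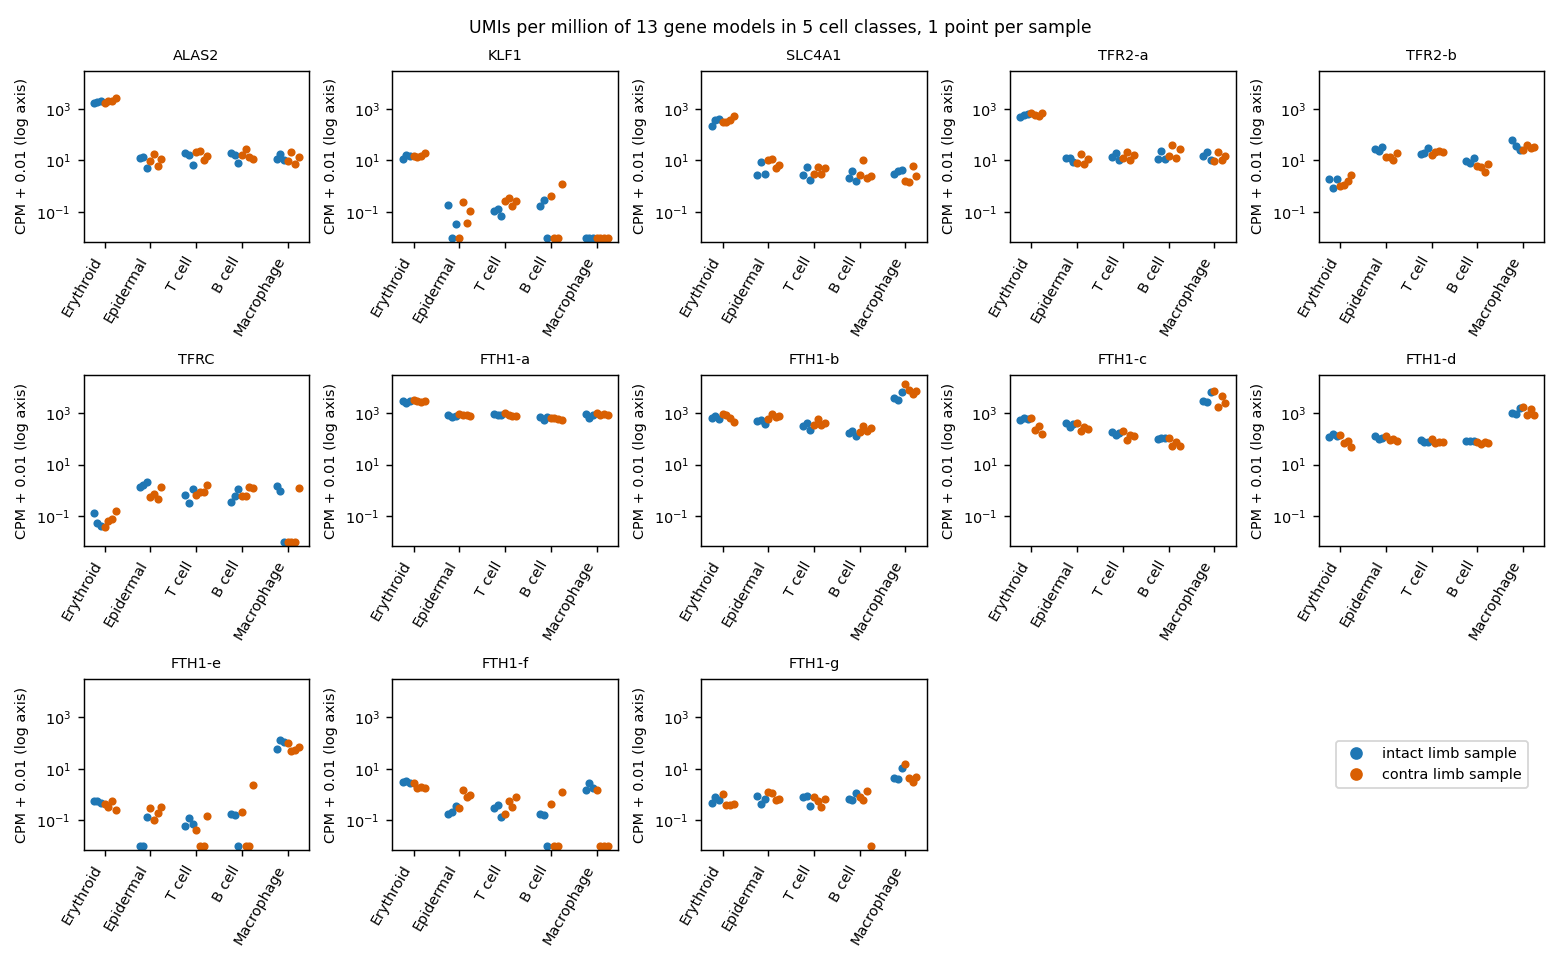
CPM plus 0.01 (log axis) of each of the 13 gene models in 5 cell classes, with 1 point per sample (blue intact, orange contra). ALAS2, KLF1, SLC4A1, TFR2-a and FTH1-a are highest in the erythroid samples, TFR2-b is lowest there, and 5 of the 7 FTH1 models are highest in macrophages.

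The transferrin receptor models went different ways across the classes. TFR2-a stood at 596 ± 72.6 CPM in erythroid cells, where 99.3% of cells held it, and at 11.2 to 19.9 CPM in the other 4 classes. Thinned, it was found in 75.1% of erythroid cells and in 3.04% to 5.50% of the others. Per haemoglobin UMI those other classes held 3.68 to 4.47 times the erythroid amount of TFR2-a, unlike ALAS2. TFR2-b was lowest in erythroid cells, at 1.59 ± 0.641 CPM, and stood at 7.50 ± 2.98 CPM in B cells, 20.2 ± 8.33 in epidermal cells, 20.9 ± 4.76 in T cells and 35.5 ± 12.8 in macrophages. The samples of macrophages, T cells and epidermal cells overlapped for TFR2-b, those of epidermal cells and B cells overlapped at their edges, and the B cell samples stayed above the erythroid ones. Erythroid cells held 7.57% of all UMIs of TFR2-b.

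The model called TFRC here (AMEX60DD201003147.1) was rare in every class. TFR2-b, whose row also carries the name TFRC, had 7612 UMIs over all kept cells, so low counts are stated for the TFRC model only. That model had 380 UMIs over all kept cells, 28 of them in erythroid cells (0.0733 ± 0.0488 CPM, in 0.209% of cells). It stood at 1.17 ± 0.599 CPM in epidermal cells, 0.852 ± 0.409 in T cells and 0.837 ± 0.397 in B cells. The 28 erythroid UMIs came from 13366 cells, so only a level this low can be stated. Macrophages had 3 TFRC UMIs in all.

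A class of 38 cells with mast cell markers also held TFR2-a. It had 129 UMIs there, a level of 318 CPM (exact 95% Poisson interval 266 to 378), in 29 of the 38 cells and in 5 of the 6 samples that had such cells. One of these cells held 41 of the UMIs, and without it the level was 241 CPM. Haemoglobin made up 0.823% of the UMIs of this class, and ALAS2 stood at 17.3 CPM (6.94 to 35.6), close to its level in T and B cells. These cells were too few per sample for a comparison.

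FTH1 was counted in every class, and which model was counted depended on the class. FTH1-a stood at 2846 ± 267 CPM in erythroid cells, at 852 ± 107 in macrophages, 849 ± 75.9 in T cells, 807 ± 58.6 in epidermal cells and 621 ± 56.6 in B cells. Its erythroid samples lay above all others, macrophages, T cells and epidermal cells overlapped, and B cells lay below epidermal cells without overlap. In the small classes FTH1-a reached 955 CPM (884 to 1030) in 46 fibroblasts and 1171 CPM (1052 to 1299) in 23 muscle cells. It reached 1318 CPM (1208 to 1434) in the 38 cells with mast cell markers.

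FTH1-b, FTH1-c and FTH1-d were highest in macrophages. FTH1-b stood at 6625 ± 3167 CPM in macrophages, 692 ± 153 in erythroid cells, 627 ± 182 in epidermal cells, 371 ± 110 in T cells and 208 ± 63.6 in B cells. FTH1-c stood at 3979 ± 2071 CPM in macrophages and 441 ± 205 in erythroid cells, and FTH1-d at 1191 ± 378 and 104 ± 38.4 CPM. The macrophage means were 9.57, 9.03 and 11.4 times the erythroid ones. For these 3 models the macrophage samples lay above every other class, and each further class overlapped with the next one down. FTH1-e was also highest there, at 80.4 ± 31.2 CPM in macrophages against 0.454 ± 0.13 CPM in erythroid cells, a ratio of 177. FTH1-g had 6.68 ± 4.67 CPM in macrophages and 0.584 to 0.819 CPM in the other classes. FTH1-f was the only other FTH1 model highest in erythroid cells, at 2.53 ± 0.668 CPM, where its samples overlapped with those of macrophages at 1.10 ± 1.13 CPM.

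As shares of all FTH1 UMIs, FTH1-a made up 69.9% in erythroid cells, 62.7% in B cells, 58.6% in T cells, 43.7% in epidermal cells and 7.29% in macrophages. FTH1-b and FTH1-c took 51.3% and 30.9% in macrophages. Summed over the 7 models, FTH1 stood at 12736 ± 5001 CPM in macrophages, 4086 ± 416 in erythroid cells, 1853 ± 160 in epidermal cells, 1452 ± 115 in T cells and 990 ± 56.9 in B cells.

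The balance of FTH1-b and FTH1-c differed between samples. This was noticed in the data and then measured. In erythroid cells there were 1.19, 1.20 and 1.07 FTH1-b UMIs per FTH1-c UMI in intact samples 1, 2 and 4. Contra samples 1, 2, 4 and 5 had 1.39, 3.80, 1.99 and 2.92. Contra sample 2 was the highest and contra sample 5 the second highest in erythroid cells, epidermal cells, T cells, B cells and macrophages, while the order of the other samples changed from class to class. In erythroid cells every contra sample lay above every intact one, with a geometric mean 2.04 times as high (difference of 1.03 on the log2 scale, exact permutation p 0.0571, two-sided). The smallest p that the 35 splits of 7 samples allow is 0.0286, and adjusted over the 5 classes the p was 0.190. In the other classes the groups overlapped in T cells, B cells, macrophages and epidermal cells, with exact permutation p of 0.286, 0.0857, 0.171 and 0.114. Within the 3 pairs of samples with the same number, the contra sample was higher in 3 of 3 in erythroid cells, epidermal cells, B cells and macrophages and in 2 of 3 in T cells. The mean paired differences were 0.93, 0.96, 0.99, 0.84 and 0.66 on the log2 scale in that order, and 3 pairs cannot give an exact p below 0.25.

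**Figure D2:**
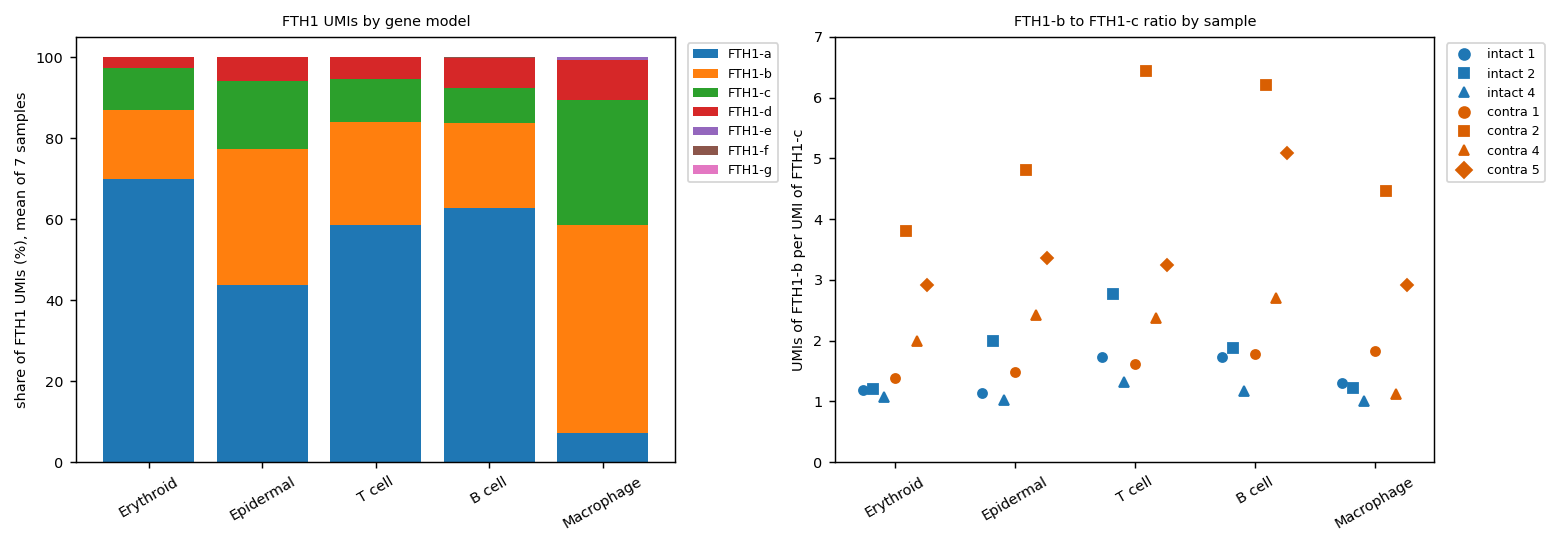
Left: share of FTH1 UMIs (%) taken by each of the 7 FTH1 models in 5 cell classes, mean of 7 samples. Right: FTH1-b UMIs per FTH1-c UMI in each class, with 1 point per sample. FTH1-a fills 69.9% of the erythroid bar and 7.29% of the macrophage bar, and contra samples 2 and 5 give the highest ratios in each class.

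Within the erythroid class the genes were followed from cells in which few gene models were detected to cells in which many were. The 4 strata were cut at the quartiles of 1328, 1694 and 2296 detected models, so gene-poor and gene-rich cells are the bottom and top stratum. From the bottom to the top, median UMIs per cell went from 16646 to 43455 (means over samples), and a list of proliferation genes from 83.4 to 1184 CPM with haemoglobin left out of the total. Haemoglobin made up 77.2% of UMIs in the bottom and 73.9% in the top stratum, and the median share of mitochondrial UMIs was 0.735% and 2.00%. Depth, proliferation and mitochondrial RNA thus move with the strata, and their part in the differences below was tested only as far as stated. Intact sample 2 held 119 gene-poor cells, 4.97% of its erythroid cells, against 17.2% to 38.1% in the other samples. Levels in the strata are given as CPM with haemoglobin UMIs left out of the total, called adjusted CPM here.

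The ferritin models FTH1-b, FTH1-c and FTH1-d fell steeply towards gene-rich cells. FTH1-b stood at 5890, 7636 and 5961 adjusted CPM in the gene-poor cells of intact samples 1, 2 and 4 and at 7332, 8858, 6246 and 4156 in those of contra samples 1, 2, 4 and 5. In gene-rich cells of the same samples it stood at 853, 1590 and 861 and at 1472, 1673, 993 and 987. The gene-rich values lay below all gene-poor values, and FTH1-b, FTH1-c and FTH1-d each fell at every step between strata in 7 of 7 samples. By edgeR's quasi-likelihood test with the sample as a block, the log2 fold change, gene-rich over gene-poor, was -2.99 ± 0.11 SE for FTH1-b (adjusted p 2.42e-18), -3.16 ± 0.15 for FTH1-c, -2.68 ± 0.12 for FTH1-d and -2.11 ± 0.18 for FTH1-f. Of all 10643 models tested, 26.1% were higher and 29.4% lower in gene-rich cells (55.6% in all), so a call by itself is common here. Of the 13 member models 10 were tested, and 3 were called higher and 5 lower.

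FTH1-a averaged 12186, 13530, 14070 and 11155 adjusted CPM from the bottom to the top stratum and was highest in the third stratum in 5 of 7 samples. Its log2 fold change was -0.65 ± 0.08 (edgeR adjusted p 1.3e-07) with TMM scaling, but 0.08 ± 0.09 (adjusted p 0.444) when only library size was scaled. Between these scalings the median of all models moved by 0.73, and the values of this comparison are relative to that choice. Over the 28 sums of 7 samples by 4 strata, FTH1-c and FTH1-d had a Pearson correlation of 0.996 and FTH1-b and FTH1-d one of 0.897, while FTH1-a and FTH1-d had 0.0471. These sums share libraries and depth, and the correlations are a description.

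Each cell was also first thinned to 3000 UMIs, and the strata were cut on the models detected then. With TMM scaling the fall was then smaller for FTH1-b, FTH1-c, FTH1-d and FTH1-f and larger for FTH1-a. The log2 fold changes were -1.14 ± 0.13 for FTH1-b, -1.03 ± 0.16 for FTH1-c, -1.09 ± 0.14 for FTH1-d, -1.29 ± 0.15 for FTH1-f and -1.18 ± 0.08 for FTH1-a, each called by edgeR. Haemoglobin made up 83.6% of UMIs in the bottom and 66.7% in the top of these strata, and the direction depended on the scaling. In CPM of all UMIs FTH1-a was higher in gene-rich cells in 6 samples and lower in 1, and FTH1-f higher in 5 and lower in 2. FTH1-b and FTH1-d were each higher in 4 and lower in 3, and FTH1-c higher in 3 and lower in 4. Counted against UMIs outside haemoglobin, FTH1-a, FTH1-b and FTH1-f were lower in gene-rich cells of these strata in 7 of 7 samples, FTH1-d in 6 and FTH1-c in 5. With cells rich in proliferation genes left out, the log2 fold changes were -2.70 ± 0.11 for FTH1-b and -2.94 ± 0.15 for FTH1-c.

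**Figure D3:**
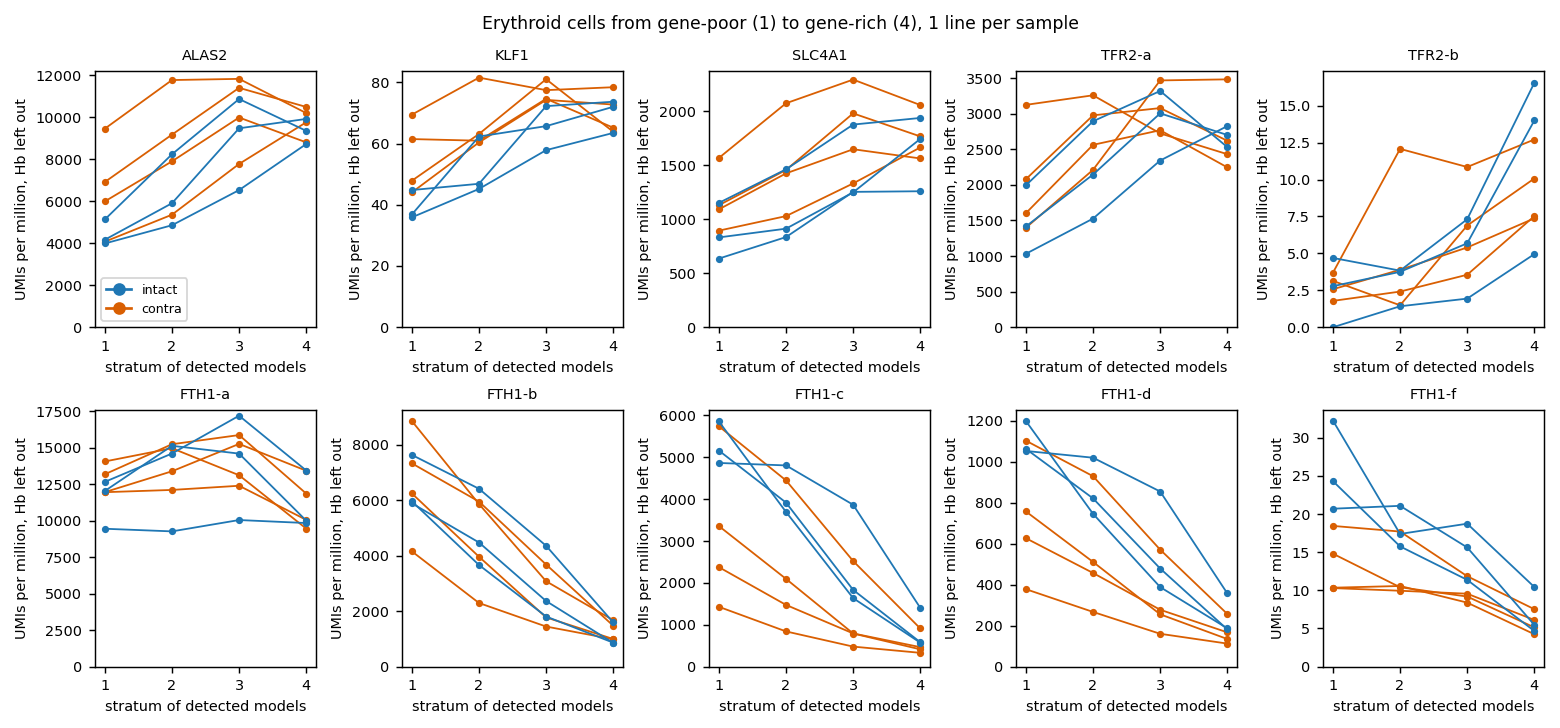
Adjusted CPM (haemoglobin left out of the total) of 10 gene models in 4 strata of erythroid cells, from few (1) to many (4) detected models, with 1 line per sample (blue intact, orange contra). FTH1-b, FTH1-c and FTH1-d fall at every step in 7 of 7 samples, while FTH1-a is highest in the third stratum in 5 of 7.

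ALAS2 averaged 5681 adjusted CPM in the bottom stratum and 7606, 9703 and 9615 in the next ones. In gene-poor cells it stood at 4171, 3993 and 5138 in intact samples 1, 2 and 4 and at 4078, 6923, 5998 and 9464 in contra samples 1, 2, 4 and 5, and in gene-rich cells at 9929, 8732 and 9360 and at 9769, 10499.5, 8811 and 10208. It was higher in gene-rich cells in 7 of 7 samples, least so in contra sample 5, and the spread between samples was narrower in gene-rich cells (SD of 677 against 1998). ALAS2 rose by 0.31 ± 0.10 on the log2 scale (edgeR adjusted p 0.00821) in the strata of detected models, but after thinning the direction turned to -0.71 ± 0.07 (adjusted p 2.14e-07). In the thinned strata ALAS2 was lower in gene-rich cells in 7 of 7 samples in adjusted CPM. In CPM of all UMIs it was higher there in 7 of 7, so its direction after thinning depends on the scaling. The share of haemoglobin in all UMIs also fell towards gene-rich cells there, and its part in this was not tested. The call of ALAS2 was lost, with the direction kept, in 3 alternative settings. One of these left out contra sample 1, with a rise of 0.24 and an edgeR adjusted p of 0.0504. SLC4A1 averaged 1043 and 1713 adjusted CPM in the bottom and top stratum. It rose by 0.23 ± 0.08 (edgeR adjusted p 0.0204), and after thinning stood at -0.14 ± 0.08 (adjusted p 0.166). That negative value was given with TMM scaling. In both adjusted CPM and CPM of all UMIs, SLC4A1 was higher in gene-rich cells of the thinned strata in 7 of 7 samples. Its call was lost, with the direction kept, in 5 alternative settings. Among these were the edgeR fits without intact sample 4 (adjusted p 0.0584) and without contra sample 1 (0.0561).

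KLF1 averaged 48.6 adjusted CPM in gene-poor and 69.9 in gene-rich cells, with a log2 fold change of 0.02 ± 0.11 (edgeR adjusted p 0.865), 0.76 ± 0.12 with library size alone and -0.63 ± 0.10 after thinning. TFR2-a averaged 1807, 2511, 2958 and 2691 adjusted CPM from the bottom to the top stratum. Its log2 fold change was 0.12 ± 0.12 (edgeR adjusted p 0.398), 0.85 ± 0.12 with library size alone and -0.46 ± 0.08 after thinning. In CPM of all UMIs KLF1 and TFR2-a were each higher in gene-rich cells of the thinned strata in 7 of 7 samples. Haemoglobin went from 83.6% to 66.7% of UMIs from the bottom to the top of these strata. Its part in these counts was not tested. In adjusted CPM KLF1 was lower there in 6 samples and higher in 1, and TFR2-a lower in 4 and higher in 3. TFR2-b was the only member model that was called higher in gene-rich cells both with and without thinning. It averaged 2.67 adjusted CPM in gene-poor and 10.5 in gene-rich cells, with log2 fold changes of 1.36 ± 0.23 (edgeR adjusted p 1.15e-05) and, after thinning, 1.03 ± 0.20 (0.000265). Its counts were small, with 576 UMIs in all erythroid cells. Both sets of strata are cut on the number of models detected, which can itself favour rarely detected models in the top stratum. With no filter on low counts, 4479 models were called higher and 2467 lower (median log2 fold change 0.42) in the unthinned strata. The part of this in the rise of TFR2-b was not tested. After thinning, 1 member model was called higher and 8 lower, where 20.2% and 21.2% of all models were (41.5% in all).

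**Figure D4:**
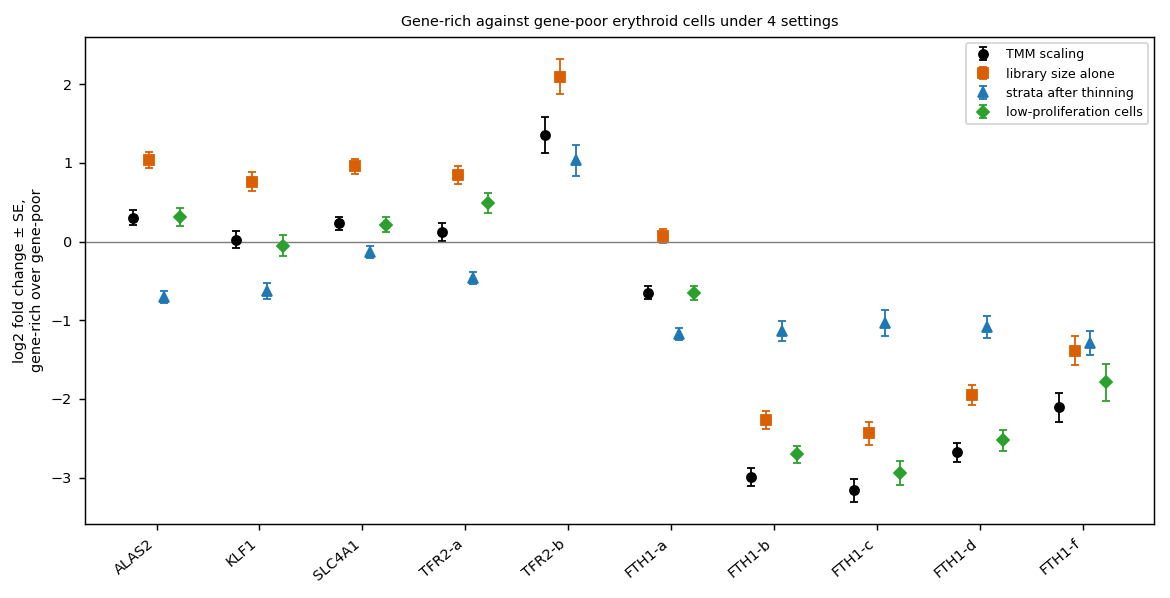
Log2 fold change ± SE, gene-rich over gene-poor erythroid cells, of 10 gene models under 4 settings (TMM scaling, library size alone, strata after thinning, cells low in proliferation genes). FTH1-b, FTH1-c, FTH1-d and FTH1-f lie below 0 and TFR2-b above 0 wherever they were tested, while ALAS2, KLF1, SLC4A1, TFR2-a and FTH1-a lie on both sides of 0.

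Gene-rich erythroid cells were also split by proliferation genes, at 5 UMIs of that list per 10000 UMIs outside haemoglobin. TFR2-a was lower in the cells rich in proliferation genes in 7 of 7 samples, at 621 ± 75.1 CPM against 905 ± 109 CPM in the others. FTH1-b was lower in 7 of 7 samples too, at 275 ± 69.3 against 385 ± 98.5 CPM. ALAS2 was higher in 4 of 7 samples, at 2547 ± 269 against 2491 ± 304 CPM. This split was made after the data were seen and was not tested.

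The other genes of these pathways were read from lists, and all-gene medians of the log2 fold change stood at -0.00 in the strata and 0.04 in the thinned strata. Of all models tested 26.1% were called higher and 29.4% lower in the strata, and 20.2% and 21.2% in the thinned strata. Of 14 tested models of haem synthesis and haem transport and breakdown, 8 were called higher and 3 lower in gene-rich cells (median log2 fold change 0.35), but after thinning 2 of 13 were higher and 7 lower. UROD, a decarboxylase of the haem pathway, rose by 0.27 ± 0.09 and SLC25A37 (mitoferrin), which brings iron into mitochondria, by 0.44 ± 0.10 in the unthinned strata. After thinning UROD stood at 0.00 ± 0.08 and SLC25A37 fell by 0.21 ± 0.07 (edgeR adjusted p 0.0325). BLVRB, a biliverdin reductase, and TMEM14C, a mitochondrial porphyrin transporter, stood at 0.05 ± 0.09 and 0.13 ± 0.09 in the unthinned strata. After thinning they fell by 0.47 ± 0.08 (edgeR adjusted p 0.000129) and 0.21 ± 0.08 (0.0440). Unthinned and in CPM of all UMIs, BLVRB and TMEM14C stood at 205 and 126 in gene-poor and at 350 and 228 in gene-rich cells. UROD and SLC25A37 stood at 132 and 115 and at 262 and 251. The fold changes and calls of this list are with TMM scaling. They depend on the scaling, and other scalings of the thinned strata were not tested for it.

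Of 9 tested iron models 2 were higher and 4 lower (median -0.22), and after thinning 1 was higher and 5 lower. Over all models 26.1% were higher and 29.4% lower, and after thinning 20.2% and 21.2%. Several counts of these lists lie near those shares. NCOA4, the receptor that carries ferritin to lysosomes for breakdown, fell by 0.87 ± 0.09 (edgeR adjusted p 3.51e-09) and by 0.84 ± 0.07 after thinning. GLRX5, a mitochondrial glutaredoxin of iron-sulphur cluster assembly, fell by 0.58 ± 0.09, and PCBP2, a chaperone that delivers iron to ferritin, by 0.46 ± 0.09. After thinning GLRX5 and PCBP2 fell by 0.92 ± 0.09 and 0.51 ± 0.08. Unthinned and in CPM of all UMIs both were higher in gene-rich cells, so their direction depends on the scaling. GLRX5 stood at 92.4 CPM in gene-poor and 102 in gene-rich cells, and PCBP2 at 20.4 and 24.4. SLC11A2 (DMT1), which moves iron out of endosomes, rose by 0.59 ± 0.10, and by 0.31 ± 0.09 after thinning. Of 13 membrane models 4 were higher and 4 lower (median -0.12), and after thinning 3 of 14 were higher and 6 lower (median -0.29). SPTB, the spectrin beta chain, rose by 0.66 ± 0.09, and by 0.29 ± 0.08 after thinning. RHAG, EPB41 and ANK1 stood at -0.15 ± 0.09, -0.13 ± 0.09 and -0.08 ± 0.11, and after thinning fell by 0.35 ± 0.07, 0.49 ± 0.08 and 0.48 ± 0.09 (edgeR adjusted p 0.000603, 3.72e-05 and 0.000118). Unthinned and in CPM of all UMIs RHAG, EPB41 and ANK1 were higher in gene-rich cells, so their direction depends on the scaling. They stood at 148, 111 and 78.6 CPM in gene-poor cells and at 218, 167 and 122 in gene-rich cells. Of 10 erythroid regulators 3 were higher and 5 lower (median -0.26), and after thinning 2 were higher and 6 lower (median -0.38). ZFPM1, the GATA1 partner FOG1, rose by 1.93 ± 0.13, while LMO2, BCL11A and TAL1 fell by 0.58 ± 0.10, 0.50 ± 0.09 and 0.42 ± 0.10. After thinning ZFPM1 rose by 1.005 ± 0.12, and the other 3 fell by 0.78 ± 0.09, 0.49 ± 0.09 and 0.36 ± 0.08. Unthinned and in CPM of all UMIs, LMO2, BCL11A and TAL1 were higher in gene-rich cells, so their direction too depends on the scaling. They stood at 42.3, 37.8 and 30.5 CPM in gene-poor cells and at 46.5, 44.2 and 37.9 in gene-rich cells. All 9 tested proliferation models were higher (median 3.37), with TOP2A at 4.48 ± 0.14 and MCM3 at 3.37 ± 0.19. After thinning all 9 were again higher, but the median was 1.29, with TOP2A at 2.68 ± 0.21 and MCM3 at 1.29 ± 0.19.

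Over the same 28 sums, ALAS2 ran with SLC4A1 (r = 0.896), TFR2-a (r = 0.870) and KLF1 (r = 0.835) and against FTH1-d (r = -0.844). Among 5889 models with a symbol and at least 1000 erythroid UMIs, those most like ALAS2 by Pearson correlation were ALDH2 (0.970), SMG9 (0.955) and SPTAN1 (0.955). Those most like TFR2-a were C16ORF70 (0.968), DEDD2 (0.959) and KMT2C (0.956). Those most like SLC4A1 were DMTN (0.959), SLC25A39 (0.950) and SPTB (0.950), and those most like KLF1 were TMCC3 (0.900), AGFG1 (0.894) and DAB2 (0.888). For FTH1-a the closest were METAP2 (0.757), SOD1 (0.751) and ANK1 (0.716). TFRC had too few UMIs for such a comparison.

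Contra and intact limbs were then compared in erythroid cells, which asks how these genes stand in the red cells of systemically activated limbs. None of the 12 member models tested was called, and neither was any of all 19459 models (0.0%) by edgeR, although 832 (4.28%) had an unadjusted p under 0.05. DESeq2 called 18 (0.0925%). ALAS2 stood at 1615, 1801 and 2050 CPM in intact samples 1, 2 and 4 and at 1707, 2071, 1942 and 2669 in contra samples 1, 2, 4 and 5, with a log2 fold change, contra over intact, of 0.11 ± 0.16. Contra sample 5 was the highest and the groups overlapped. SLC4A1 stood at 216, 354 and 399 CPM in intact limbs and at 302, 311, 381 and 505 in the contra samples (0.14 ± 0.17), and KLF1 at 10.99, 16.7 and 14.7 and at 15.4, 13.6, 15.3 and 19.1 (0.09 ± 0.12). For both, intact sample 1 was the lowest and contra sample 5 the highest.

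TFR2-a stood at 494, 596 and 630 CPM in the erythroid cells of the intact samples and at 675, 569, 524 and 685 in those of the contra samples, with a log2 fold change of 0.02 ± 0.16. TFR2-b ranged from 0.836 to 2.63 CPM (-0.15 ± 0.36). FTH1-a stood at 2983, 2377 and 2917 CPM in intact limbs and at 3167, 2873, 2606 and 2996 in contra samples (-0.02 ± 0.21, and 0.08 with library size alone). FTH1-b stood at 637, 781 and 608 and at 887, 853, 618 and 460 CPM (0.01 ± 0.29). All of these groups overlapped. The direction of TFR2-a, TFR2-b, FTH1-a, FTH1-b and SLC4A1 turned when 1 sample or another was left out.

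FTH1-c, FTH1-d and FTH1-f were lower in 3 of the 4 contra samples. FTH1-c stood at 536, 650 and 568.1 CPM in the erythroid cells of the intact samples and at 638, 224, 311 and 158 in those of contra samples 1, 2, 4 and 5, so contra sample 1 lay among the intact samples and the other 3 below them. FTH1-d stood at 120, 148 and 125 and at 139, 69.0, 78.9 and 48.3 CPM, and FTH1-f at 2.96, 3.49 and 2.83 and at 2.86, 1.76, 2.01 and 1.83 CPM. The log2 fold changes were -0.84 ± 0.44, -0.68 ± 0.35 and -0.62 ± 0.23, with a smallest adjusted p over the members of 0.974 by edgeR and 0 member models without overlap, against 3.08% of all models. FTH1-f alone had an unadjusted p under 0.05 in edgeR, at 0.022. Without contra sample 1 the log2 fold changes were -1.45 ± 0.26, -1.11 ± 0.22 and -0.88 ± 0.16, with edgeR adjusted p of 0.0782, 0.0893 and 0.0806, and 19 models of all tested were called. FTH1-c and FTH1-d were each called in 1 alternative setting of the processing and not called in 17 others, with the direction kept. Contra sample 1 had the least epidermal marker RNA in its erythroid sum, 45.2 CPM against 201 to 356 CPM in the other contra samples and 60.2, 61.1 and 153 CPM in the intact samples, and the part of this in the result was not tested.

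In the pathway lists, 0 models were called between contra and intact erythroid cells among 17 haem, 13 iron, 15 membrane, 10 regulator and 11 proliferation models tested. At an unadjusted p under 0.05 in edgeR there were 1, 0, 1, 0 and 1, where 4.28% of all models tested were. The median log2 fold changes were -0.02, -0.03, 0.01, 0.01 and 0.46 in the same order, against 0.00 over all models tested.

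**Figure D5:**
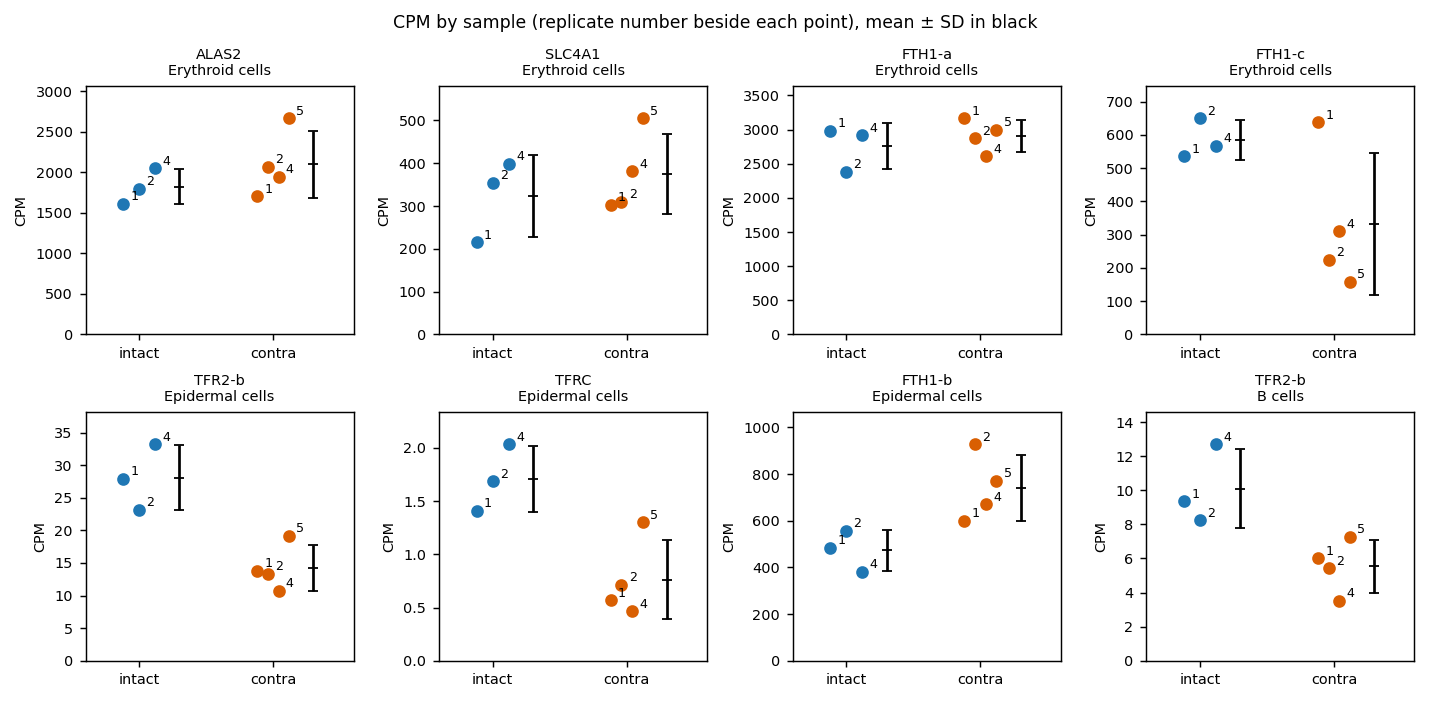
CPM by sample in intact (blue) and contra (orange) limbs of 4 gene models in erythroid cells and of 3 models in epidermal cells and 1 in B cells, with the replicate number beside each point and the mean ± SD in black. The erythroid groups overlap for each model shown, with contra sample 1 among the intact samples for FTH1-c, while TFR2-b and TFRC of the epidermal contra samples lie below the intact samples.

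In epidermal cells the receptor models TFR2-b and TFRC lay lower in contra limbs. TFR2-b stood at 27.9, 23.2 and 33.2 CPM in intact samples 1, 2 and 4 and at 13.8, 13.4, 10.7 and 19.2 CPM in contra samples 1, 2, 4 and 5. TFRC stood at 1.41, 1.68 and 2.03 CPM in the intact samples and at 0.568, 0.712, 0.465 and 1.30 CPM in the contra samples. The groups did not overlap for either model. The log2 fold change of TFR2-b was -0.999 ± 0.20, which edgeR did not call (adjusted p 0.379), while DESeq2 called it (-0.9955 ± 0.23, adjusted p 0.0111). Blocking on the replicate number, edgeR also called it (-1.14 ± 0.16, adjusted p 0.0432, over the 3 numbers present in both groups). With these, 3 alternative settings called TFR2-b and 12 did not. TFRC had a log2 fold change of -1.17 ± 0.36 (edgeR adjusted p 0.491) from 192 UMIs.

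FTH1-b was the third model whose epidermal groups did not overlap. It stood at 485, 556 and 380 CPM in intact limbs and at 600, 927, 670 and 770 CPM in contra limbs, with a log2 fold change of 0.65 ± 0.17 (edgeR adjusted p 0.467, and 0.0577 with the block). Of the alternative settings 1 called FTH1-b and 14 did not. FTH1-c in the same cells had -0.35 ± 0.30. Summed over the 7 models, FTH1 in epidermal cells stood at 1878, 1662 and 1644 CPM in intact samples 1, 2 and 4. The sum stood at 2056, 2029, 1849 and 1854 CPM in contra samples 1, 2, 4 and 5, so for it the groups overlapped. Thus 3 of the 11 member models tested in epidermal cells had groups that did not overlap, where 9.83% of all 21124 models did. In edgeR 5 of the 11 had an unadjusted p under 0.05, where 8.22% of all models did. The members include several models of 1 gene and are not separate units, so these counts are a description. EdgeR called 0 models there (0.0%), 113 with the block, and DESeq2 65 (0.308%). The epidermal class held 149 to 1480 cells in the intact and 262 to 2663 in the contra samples, and the mix of epidermal cell states was not tested.

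In B cells TFR2-b again lay lower in contra limbs, at 6.02, 5.42, 3.51 and 7.25 CPM in samples 1, 2, 4 and 5 against 9.35, 8.25 and 12.7 CPM in intact samples 1, 2 and 4, with no overlap (log2 fold change -0.85 ± 0.31, edgeR adjusted p 1). FTH1-d did not overlap either (-0.26 ± 0.21). These were 2 of 7 member models tested, against 2.36% of all models. In T cells TFR2-b stood at 16.95, 19.4 and 30.4 CPM in intact limbs and at 15.7, 21.0, 22.2 and 20.8 CPM in contra limbs (-0.20 ± 0.19), with overlap, and 0 of 10 member models had an unadjusted p under 0.05 or groups without overlap, against 2.22% without overlap among all models. EdgeR called 0 models in T cells and B cells (0.0%), with 331 and 119 at an unadjusted p under 0.05. Those were 1.57% and 1.23%. With the replicate block it called 1 and 6, and DESeq2 called 0 and 1 (0.0% and 0.0104%). In sums over all kept cells, where fewer cells of a type and less RNA per cell cannot be told apart, 0 of 13 member models were called and 0 had groups without overlap, against 1.76% of all models. EdgeR called 0 of 32711 models there (0.0%), with 840 (2.57%) at an unadjusted p under 0.05, and also 0 with the replicate block, while DESeq2 called 14 (0.0428%).

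Macrophages were 33 to 74 per sample and were not tested between groups. FTH1-b stood there at 3703, 3293 and 6467 CPM in intact limbs and at 12715, 7749, 5269 and 7181 CPM in contra limbs, and FTH1-c at 2861, 2694 and 6427 and at 6977, 1739, 4698 and 2457 CPM. The groups overlapped for both models, and contra sample 1 was the highest for each.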

How the data were processed

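The deposited matrices hold UMI counts per gene model and cell, with no normalization, per the file headers and values. The submitters' processing notes name kallisto 0.48.0 and Seurat 4.2.0, and no genome build or annotation is named in the labels or file headers. Deposited cells had at least 3003 UMIs and 1000 detected models and at most 20.0% mitochondrial UMIs. Of 35013 cells, 439 with a Scrublet score (scanpy 1.11.5) above 0.25 were left out. Intact sample 5 was not analysed here. Nothing says that samples came from separate animals, so p-values measure the spread between samples, which may be technical.

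The genes and lists were chosen with earlier results of these data known. The marker gates were set after the distributions of marker UMIs were seen. Models named HB-AM were then added to the haemoglobin list (19 models in place of 17), and 114 erythroid cells would fall under 20% without them. Summed counts per sample and class were tested with edgeR 4.0.16 (TMM scaling, quasi-likelihood, Benjamini-Hochberg over all models tested, threshold 0.05) in R 4.3.3, with DESeq2 1.42.0 as an alternative. Standard errors were derived from the quasi-likelihood F statistic. Python 3.11.15, numpy 2.4.6 and scipy 1.17.1 did the rest. Each script with a test across models was tested on simulated data. All models of the 6 genes are named, with at most 4 tested models per list, those with the most erythroid UMIs, and the 3 models most like each gene by Pearson correlation of log2(CPM + 1) without haemoglobin.

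Samples of the same number deviated together (every correlation over 0.1) in all kept cells (0.675, 0.489 and 0.667) and epidermal cells (0.392, 0.436 and 0.223). They also did so in T cells (0.519, 0.628 and 0.289) and B cells (0.509, 0.563 and 0.143). For these comparisons the number of models called with the replicate block is therefore given. Blocked fits of single members are given for TFR2-b and FTH1-b in epidermal cells only. The pairing comes from the labels' numbers and these correlations only. None of the model identifiers (0) matched the RefSeq gene table, and sequences of the models were not analysed here.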

Additional observations from a re-analysis of the deposited data

Results flagged for a closer look

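In the strata cut after thinning, the gene-rich minus gene-poor difference of FTH1-b in contra sample 1 was -0.13 on the log2 scale of CPM counted without haemoglobin, and it stood apart from the other 3 contra samples. It was the 1 value to stand apart among 62 groups of samples checked, and chance gives about 1 in 20.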

How the results depend on the processing

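Between contra and intact erythroid cells edgeR called 0 models, DESeq2 18, edgeR without a filter on low counts 376, gene-poor cells alone 7, and leaving out 1 sample 0 to 19, with 19 without contra sample 1 and 1 without intact sample 2. Over all kept cells DESeq2 called 14. In epidermal cells DESeq2 called 65, no filter 384, and leaving out 1 sample 0 to 2. In T cells no filter called 147 and leaving out 1 sample 0 to 1, and in B cells DESeq2 1, no filter 33 and leaving out 1 sample 0 to 3. With the replicate number as a block, 113 models were called in epidermal cells, 6 in B cells, 1 in T cells, 0 over all kept cells and 1 in erythroid cells. In erythroid cells the correlations were 0.245, 0.0805 and 0.161, so not every one was over 0.1. This does not show that the samples are unpaired. The FTH1-b to FTH1-c ratio in erythroid cells differed by 0.93 on the log2 scale with the block (exact permutation p 0.25) and by 0.80 to 1.28 with 1 sample left out. Gene-rich against gene-poor calls numbered 5913, and 4430 to 8115 under the alternatives.

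These directions turned in erythroid cells between contra and intact, as log2 fold changes, and the cause was not tested. FTH1-a: leaving out 1 sample -0.16 to 0.17, block 0.0505, gene-poor cells 5.5e-05, library size alone 0.0772. FTH1-b: no filter -0.0035, looser gate -0.0091, gene-poor cells -0.11, leaving out 1 sample -0.17 to 0.21. KLF1 in gene-rich cells: -0.0466. SLC4A1: leaving out 1 sample -0.0056 to 0.24. TFR2-a: looser gate -0.0364, gene-rich cells -0.0439, leaving out 1 sample -0.0868 to 0.0922. TFR2-b: library size alone 0.0081, leaving out 1 sample -0.52 to 0.25, and in T cells -0.34 to 0.0733. Between strata these turned: ALAS2 after thinning -0.71, SLC4A1 after thinning -0.14, FTH1-a by library size alone 0.0753, TFR2-a with the looser gate -0.0925 and after thinning -0.46, and KLF1 with the looser gate -0.18, in low-proliferation cells -0.0510, after thinning -0.63 and leaving out 1 sample -0.0457 to 0.11. In CPM of all UMIs ALAS2, SLC4A1, KLF1 and TFR2-a were higher in gene-rich cells of the thinned strata in 7 of 7 samples each. SLC4A1 was also higher there in 7 of 7 samples in adjusted CPM. Haemoglobin went from 83.6% to 66.7% of UMIs over these strata, and its part in the counts by CPM of all UMIs was not tested. TFRC in erythroid cells is limited by its 28 UMIs.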
